A study of Rattus norvegicus with 6 samples.

Results

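The insulin-like growth factor (IGF) axis described here comprised 10 genes of 33508 in the gene count table. They were taken by gene name and form 3 groups by role, the ligands Igf1 and Igf2, the receptors Igf1r and Igf2r, and the binding proteins Igfbp2, Igfbp3, Igfbp4, Igfbp5, Igfbp6 and Igfbp7. RNA-seq was run on 3 libraries of BMSCs-OE-FNDC5 and 3 libraries of BMSCs-OE-NC. BMSCs are mesenchymal stem cells cultured from bone marrow. BMSCs-OE-FNDC5 carried a lentivirus for overexpression of FNDC5, the membrane protein from which the hormone irisin is cleaved, and BMSCs-OE-NC carried a vector control lentivirus. Both were kept under hypoxia and serum deprivation (H/SD) for 24 h, at 1% O2, 94% N2 and 5% CO2, so no library without H/SD was compared. The study's methods give medium without glucose or serum for this step. The sample records list 20% fetal bovine serum for every library, which the methods give for the primary culture. By the study's methods the cells came from male Sprague-Dawley rats aged 2 months, were adherent cells passaged 3 times, and received vectors tagged with green fluorescent protein or luciferase. The labels call the libraries of a group biological replicates, without naming the rat, culture or transduction behind each, so the p-values measure the spread between these libraries, which may be technical.

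IGF-I and IGF-II are secreted ligands that bind the tyrosine kinase receptor IGF1R, which recruits IRS and SHC adaptors and turns on the PI3K-AKT and RAS-ERK branches for growth and survival. IGF2R carries no kinase, takes up IGF-II for degradation and sorts enzymes tagged with mannose 6-phosphate to lysosomes. The binding proteins hold the ligands outside the cell and are cut by proteases that release them, and in marrow stroma they are among the secreted products that reach neighbouring cells.

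Total counts were 16640635 to 17229490 in BMSCs-OE-FNDC5 and 17430287 to 17965722 in BMSCs-OE-NC. Fndc5 itself had 64195 to 65589 counts in BMSCs-OE-FNDC5 and 17 to 25 counts in BMSCs-OE-NC. Of 16786 genes with a count, 12104 passed edgeR's filter on low counts and were tested, with a median log2 fold change of -0.04. Here and below a fold change sets BMSCs-OE-FNDC5 over BMSCs-OE-NC, levels of a gene are in CPM, its counts relative to the TMM-scaled library total, and a gene is said to have risen or fallen at an adjusted p under 0.05 by edgeR's quasi-likelihood test.

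Of the 10 IGF axis genes, 7 were tested. Igfbp4, Igfbp6 and Igfbp7 rose (3 genes), Igf1r and Igfbp3 fell (2 genes), and Igf1 and Igf2r did not pass the test. Such calls were common, since 36.9% of all genes tested rose and 38.8% fell. At an absolute log2 fold change over 1 as well, 0 of the 7 rose and 2 fell, Igf1r and Igfbp3, against 9.84% and 17.5% of all genes tested. The 5 called genes had CPM values that did not overlap between the groups, as did 78.3% of all genes tested. These are bulk libraries, in which fewer cells of a type and less RNA per cell cannot be told apart.

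The sequences before the starts of 4 members are shown first, those of both genes that fell (Igf1r, Igfbp3) and, of the genes that rose, the most abundant (Igfbp4) and the one with the largest fold change (Igfbp7). Each line is the 250 bases before the RefSeq gene start (build GRCr8), on the gene's own strand. Capitals mark the GC box GGGCGG, which Sp1 binds, and the core of a hypoxia response element, ACGTG or GCGTG, each searched on both strands. They also mark a TATA box with the letters TATAAA. The first is Igf1r at chr1:130959747-130959996 on the plus strand, the second Igfbp3 at chr14:86277945-86278194 on the minus strand. Igfbp4 lies at chr10:84491221-84491470 and Igfbp7 at chr14:31091486-31091735, both on the plus strand.
Igf1r: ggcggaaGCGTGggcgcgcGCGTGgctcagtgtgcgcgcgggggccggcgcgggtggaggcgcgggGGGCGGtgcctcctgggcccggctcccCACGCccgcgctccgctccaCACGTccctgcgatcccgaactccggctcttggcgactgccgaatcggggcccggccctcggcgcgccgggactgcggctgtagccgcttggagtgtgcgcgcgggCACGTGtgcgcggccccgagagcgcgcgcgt
Igfbp3: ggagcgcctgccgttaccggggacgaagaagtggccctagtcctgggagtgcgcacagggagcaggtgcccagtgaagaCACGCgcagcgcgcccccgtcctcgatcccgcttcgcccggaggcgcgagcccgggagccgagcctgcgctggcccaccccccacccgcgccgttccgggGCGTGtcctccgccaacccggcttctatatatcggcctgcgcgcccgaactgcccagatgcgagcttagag
Igfbp4: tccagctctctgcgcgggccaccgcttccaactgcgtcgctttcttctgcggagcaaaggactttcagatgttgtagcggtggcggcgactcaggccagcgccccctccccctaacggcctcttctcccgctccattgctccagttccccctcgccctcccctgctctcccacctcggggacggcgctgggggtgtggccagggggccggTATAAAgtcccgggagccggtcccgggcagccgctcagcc
Igfbp7: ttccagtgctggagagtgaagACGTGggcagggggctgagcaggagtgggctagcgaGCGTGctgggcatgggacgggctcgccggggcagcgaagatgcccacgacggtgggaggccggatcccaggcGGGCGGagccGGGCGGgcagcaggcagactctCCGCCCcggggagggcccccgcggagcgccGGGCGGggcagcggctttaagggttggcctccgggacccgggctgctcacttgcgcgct

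The windows differed in what they held. Igfbp7 had 4 GC boxes, Igf1r had 1, and Igfbp3 and Igfbp4 had 0. Igf1r, Igfbp3 and Igfbp7 each held the hypoxia core, and in Igf1r a run CACGTG reads as the core on both strands. Igfbp4 alone of the 10 genes had TATAAA, which starts 40 bases before the gene start. TATAAA was searched on the gene's strand only, and the search was added after the sequences had been seen. Other spellings of a TATA box were not searched. All 10 members had a window, and Igf2 had 2. A GC box was present for 5 of them (Igf2, Igf1r, Igf2r, Igfbp2 and Igfbp7), against 30.5% of the 33469 windows of all genes. The hypoxia core was present for 6 (the same 5 and Igfbp3), against 36.7% of all windows, and TATAAA was in 8.06%. The Igf1r window was 79.6% G and C, more than 98.8% of all windows, whose median was 51.2%. Within these 250 bases the GC box was found in a gene that rose (Igfbp7) and a gene that fell (Igf1r). It was not found there in Igfbp4, which rose, or in Igfbp3, which fell. A link between the GC box and direction was not tested. A match in letters is a description, not a bound site.

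FPKM divides by gene length and so allows levels to be set side by side between genes. In BMSCs-OE-FNDC5 the order by mean FPKM was Igfbp4, Igfbp6, Igfbp7, Igf2r, Igfbp3, Igf1r, Igf1, then Igf2 and Igfbp5. In BMSCs-OE-NC it was Igfbp4, Igfbp6, Igf2r, Igfbp7, Igfbp3, Igf1r, Igf1, then Igfbp5 and Igf2. Igfbp2 was at 0 in every library and stood last in both. Neighbours in either order had ranges that did not overlap, except Igf2 and Igfbp5. Igfbp7 and Igf2r exchanged places between the groups.

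Igfbp4 was by far the most abundant of these transcripts per length, at 683 ± 9.0 FPKM in BMSCs-OE-FNDC5 and 422 ± 3.63 FPKM in BMSCs-OE-NC (SD, n = 3 each). It ranked 221 among the genes of the table in BMSCs-OE-FNDC5 and 219 in BMSCs-OE-NC, so that its rank hardly moved. Igfbp3 ranked 5925 in BMSCs-OE-FNDC5 and 3100 in BMSCs-OE-NC, the widest move in rank of the 7 tested genes. Igf1 was at 0.591 ± 0.0960 FPKM in BMSCs-OE-FNDC5 and 0.849 ± 0.225 FPKM in BMSCs-OE-NC (SD, n = 3 each), the lowest of the 7.

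**Figure D1:**
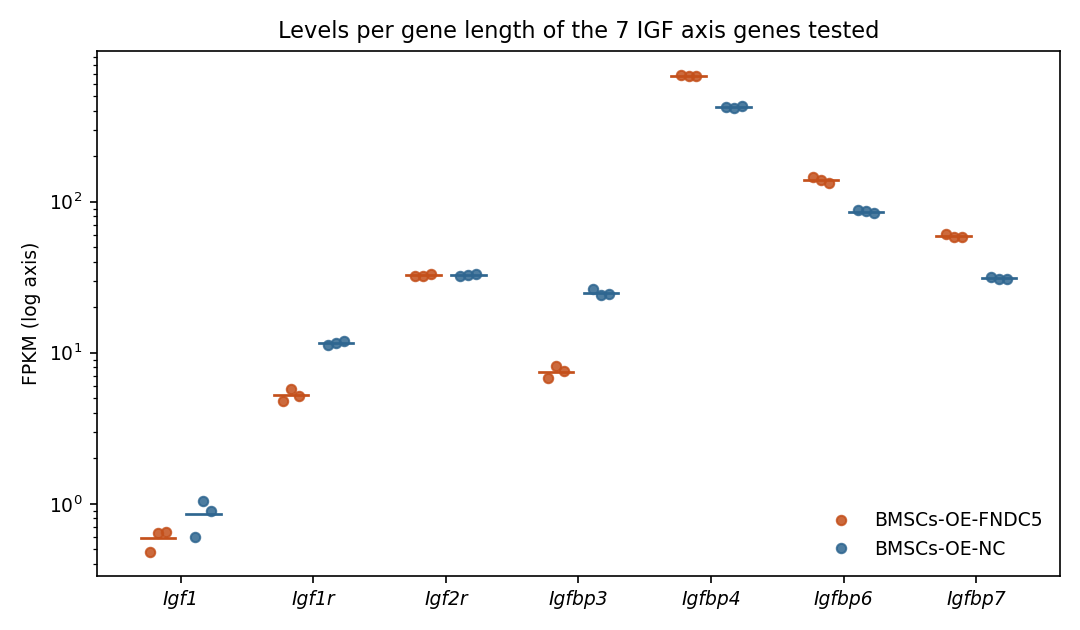
FPKM (log axis) of the 7 tested IGF axis genes, with 1 point per library and a bar at the group mean, BMSCs-OE-FNDC5 left of BMSCs-OE-NC. Igfbp4, at 683 against 422 FPKM on average, stands above all the others, and the points of Igf1 and Igf2r overlap between the groups.

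Both ligands were scarce in these cells. Igf1 (ENSRNOG00000004517, chromosome 7, 28412198 to 28486609, plus strand in the deposited table), which encodes IGF-I, had 14, 18 and 19 counts in BMSCs-OE-FNDC5 libraries 1 to 3, against 24, 41 and 35 counts in BMSCs-OE-NC libraries 1 to 3. Scaled, this was 0.926, 1.23 and 1.26 CPM in BMSCs-OE-FNDC5 and 1.18, 2.04 and 1.77 CPM in BMSCs-OE-NC. BMSCs-OE-NC library 1 lay within the range of BMSCs-OE-FNDC5, so the groups overlapped on this scale. With a log2 fold change of -0.55 (standard error 0.31), Igf1 did not pass the test (adjusted p = 0.129 from edgeR; two-sided exact permutation test, p = 0.3, n = 3 each). At this depth a change of this size could not be told from the spread between libraries. With library size as the only scaling, which moved the median of all genes by -0.37, Igf1 fell (-0.91, adjusted p = 0.018 from edgeR).

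Igf2 (ENSRNOG00000020369, chromosome 1, 215828102 to 215846911, minus strand), which encodes the fetal growth factor IGF-II, had 6, 3 and 0 counts in BMSCs-OE-FNDC5 and 5, 5 and 9 counts in BMSCs-OE-NC. It did not pass the filter. The fit without a filter gave -0.65 on the log2 scale (standard error 0.84, adjusted p = 0.532 from edgeR), an error larger than the difference. A count of 0 allows up to 3 counts, worth 0.147 to 0.205 CPM in these libraries, a limit that covers counting error only.

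The signalling receptor fell, and the clearance receptor did not pass the test with TMM scaling. Igf1r (ENSRNOG00000014187, chromosome 1, 128924966 to 129206516, plus strand) encodes the tyrosine kinase receptor and had 299, 347 and 321 counts in BMSCs-OE-FNDC5, against 954, 976 and 988 counts in BMSCs-OE-NC. This was 19.8, 23.7 and 21.3 CPM in BMSCs-OE-FNDC5, against 46.9, 48.6 and 49.9 CPM in BMSCs-OE-NC. Every BMSCs-OE-FNDC5 library was below every BMSCs-OE-NC library, with a gap between the groups wider than either range. Igf1r was 2.25-fold lower (log2 fold change -1.17, standard error 0.07, adjusted p = 4.4e-08 from edgeR), and 14.0% of all genes tested had a lower fold change.

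Igf2r (ENSRNOG00000014997, chromosome 1, 48176106 to 48264477, plus strand), the cation-independent mannose 6-phosphate receptor, had 4302, 4137 and 4424 counts in BMSCs-OE-FNDC5 and 5877, 5851 and 5856 counts in BMSCs-OE-NC. After scaling it was at 285, 282 and 293 CPM in BMSCs-OE-FNDC5, against 289, 292 and 296 CPM in BMSCs-OE-NC. The groups overlapped, and each varied little between libraries. Igf2r had a log2 fold change of -0.03 and did not pass (standard error 0.03, adjusted p = 0.390 from edgeR), but this value depends on the scaling. Igf2r fell with library size as the only scaling (-0.40, adjusted p = 1.4e-07 from edgeR) and with upper-quartile scaling (-0.13, adjusted p = 0.0013 from edgeR). It rose (0.98, adjusted p = 1.2e-10 from edgeR) when the trend of counts with gene length was removed from each library.

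Within a library, a scaling factor for the whole library cancels in the ratio of the receptors, but removal of the length trend does not. The ratios below are without that removal, under which Igf2r rose (0.98) and Igf1r (-0.64) and Insr (-0.42) fell. The ratio of Igf2r to Igf1r by FPKM was 6.72, 5.56 and 6.43 in BMSCs-OE-FNDC5, against 2.88, 2.80 and 2.77 in BMSCs-OE-NC, so that the groups did not overlap. On the log2 scale of counts the ratio was 3.73 ± 0.142 in BMSCs-OE-FNDC5 and 2.59 ± 0.0286 in BMSCs-OE-NC (SD, n = 3 each), a difference of 1.14 (two-sided exact permutation test, p = 0.1, which 3 against 3 cannot go below). Insr encodes the insulin receptor, which pairs with IGF1R in hybrid receptors. It fell, at 7.28, 8.18 and 9.34 CPM in BMSCs-OE-FNDC5, against 17.8, 22.1 and 21.2 CPM in BMSCs-OE-NC (log2 fold change -1.30, standard error 0.13, adjusted p = 2.9e-06 from edgeR). With the trend of counts with gene length removed, Insr fell by less (-0.42, adjusted p = 0.0084 from edgeR). The log2 ratio of Igf1r to Insr was 1.38 ± 0.178 in BMSCs-OE-FNDC5 and 1.26 ± 0.132 in BMSCs-OE-NC (SD, n = 3 each), with overlapping groups (difference 0.13, two-sided exact permutation test, p = 0.4). The 2 ratios were the only ones computed, since the ratio of the ligands would have rested on fewer than 10 counts in a library, and p adjusted over them would not fall below 0.1.

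Among the binding proteins, 1 fell, 3 rose and 2 were too low to test. Igfbp3 (ENSRNOG00000061910, chromosome 14, 87457647 to 87465374, minus strand) encodes the main carrier of the IGFs in serum. It had 247, 288 and 274 counts in BMSCs-OE-FNDC5, against 1306, 1183 and 1191 counts in BMSCs-OE-NC. This was 16.3, 19.6 and 18.1 CPM in BMSCs-OE-FNDC5, against 64.2, 59.0 and 60.2 CPM in BMSCs-OE-NC. The groups were far apart, and no other IGF axis gene tested differed by as much under any of the scalings and fits compared. Igfbp3 was 3.39-fold lower (log2 fold change -1.76, standard error 0.07, adjusted p = 1.4e-09 from edgeR), and 5.08% of all genes tested had a lower fold change. Its window above holds the hypoxia core and no GC box.

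Igfbp4 (ENSRNOG00000010635, chromosome 10, 86950557 to 86962578, plus strand) encodes a binding protein that withholds IGFs from their receptor until the protease PAPP-A cuts it. It had 22802, 21555 and 22264 counts in BMSCs-OE-FNDC5, against 18949, 18585 and 18734 counts in BMSCs-OE-NC. Scaled, it was at 1508, 1470.0 and 1475 CPM in BMSCs-OE-FNDC5, against 931, 926 and 946 CPM in BMSCs-OE-NC. All BMSCs-OE-FNDC5 libraries were higher, both in raw counts and after scaling. Igfbp4 rose 1.59-fold (log2 fold change 0.67, standard error 0.02, adjusted p = 2.2e-10 from edgeR). Its window above is the one with the letters TATAAA.

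Igfbp6 (ENSRNOG00000010977, chromosome 7, 143749221 to 143754054, plus strand) encodes a binding protein that prefers IGF-II. It had 156, 149 and 141 CPM in BMSCs-OE-FNDC5, against 95.1, 93.6 and 91.6 CPM in BMSCs-OE-NC. Every BMSCs-OE-FNDC5 library was higher, and the BMSCs-OE-FNDC5 libraries were more spread. Igfbp6 rose 1.59-fold (log2 fold change 0.67, standard error 0.04, adjusted p = 6.0e-08 from edgeR), the same fold as Igfbp4 to the digits given.

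Igfbp7 (ENSRNOG00000002050, chromosome 14, 33010300 to 33070190, plus strand) encodes a secreted relative that binds IGFs weakly. It had 67.4, 64.5 and 64.1 CPM in BMSCs-OE-FNDC5, against 35.6, 34.6 and 34.5 CPM in BMSCs-OE-NC. The groups did not overlap, and each had a narrow range. Igfbp7 rose 1.87-fold (log2 fold change 0.90, standard error 0.05, adjusted p = 9.2e-09 from edgeR), and 87.5% of all genes tested had a lower fold change. The window above with 4 GC boxes is that of Igfbp7.

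The other binding proteins were at or near 0. Igfbp5 (ENSRNOG00000017206, chromosome 9, 80150211 to 80167033, minus strand), a binding protein that osteoblasts store in bone matrix, had 1, 6 and 2 counts in BMSCs-OE-FNDC5 and 7, 8 and 5 counts in BMSCs-OE-NC. It did not pass the filter, and the fit without a filter gave -0.71 on the log2 scale (standard error 0.75, adjusted p = 0.453 from edgeR). Igfbp2 (ENSRNOG00000016957, chromosome 9, 80118029 to 80144789, plus strand) had a count of 0 in all 6 libraries, which allows up to 3 counts in each. In the table the 2 genes are neighbours, 5421 bases apart on opposite strands. Igfbp3 and Igfbp7 are also on 1 chromosome, 54387456 bases apart, and moved in opposite directions.

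By deposited FPKM, the binding protein transcripts summed to more in BMSCs-OE-FNDC5, and those of the receptors summed to less. The 6 binding proteins together had 907, 882 and 877 FPKM in BMSCs-OE-FNDC5, against 567, 561 and 565 FPKM in BMSCs-OE-NC. Both receptors together had 37.9 ± 0.702 FPKM in BMSCs-OE-FNDC5 and 44.3 ± 0.663 FPKM in BMSCs-OE-NC (SD, n = 3 each). Most of this was Igf2r, at 32.6 FPKM in BMSCs-OE-FNDC5 and 32.7 FPKM in BMSCs-OE-NC on average. The receptor sums are without removal of the length trend, under which Igf2r rose (0.98) and Igf1r fell (-0.64). Both ligands together had 0.627 ± 0.0662 FPKM in BMSCs-OE-FNDC5 and 0.905 ± 0.231 FPKM in BMSCs-OE-NC (SD, n = 3 each). The ranges of the ligand sums overlapped and those of the other sums did not. Deposited FPKM carries a scaling between the groups, on which the differences between these sums depend. With library size as the only scaling Igfbp4 (0.30), Igfbp6 (0.30) and Igfbp7 (0.53) rose by less, and Igfbp3 fell by more (-2.13). No test was made of these sums.

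The makeup of the binding protein transcripts by FPKM changed chiefly in Igfbp3. Of their summed FPKM, Igfbp3 made up 0.748%, 0.926% and 0.862% in BMSCs-OE-FNDC5, against 4.63%, 4.30% and 4.33% in BMSCs-OE-NC, a difference of -3.58 points. Igfbp4 made up 76.8% ± 0.547 in BMSCs-OE-FNDC5 and 74.8% ± 0.539 in BMSCs-OE-NC (SD, n = 3 each). In both groups Igfbp4 thus made up the bulk of these transcripts. Igfbp7 made up 6.67% ± 0.0585 in BMSCs-OE-FNDC5 and 5.52% ± 0.0936 in BMSCs-OE-NC (SD, n = 3 each), without overlap. Igfbp6 made up 15.7% ± 0.541 in BMSCs-OE-FNDC5 and 15.2% ± 0.325 in BMSCs-OE-NC (SD, n = 3 each), with overlap. As shares of CPM, which are not per length, the difference for Igfbp4 was 3.35 points in place of 2.00. All these shares are without removal of the length trend. In that fit Igfbp4 rose most (0.75), then Igfbp7 (0.56) and Igfbp6 (0.31), and Igfbp3 fell (-1.60). With TMM scaling Igfbp7 rose most (0.90), so the shares of Igfbp4, Igfbp6 and Igfbp7 depend on that choice. Shares were not computed with the length trend removed.

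**Figure D2:**
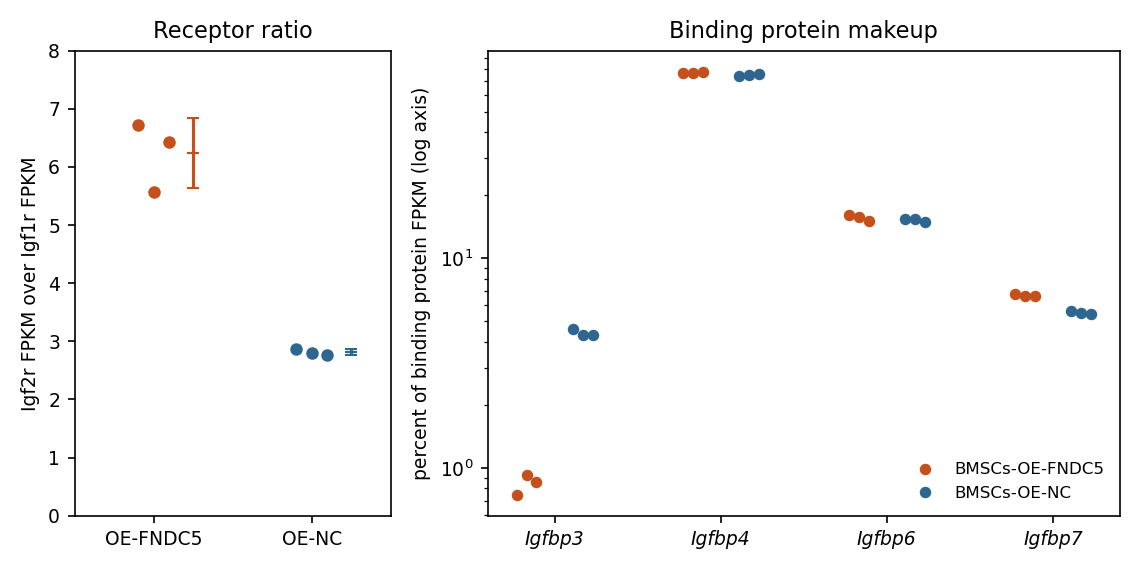
Left, the ratio of Igf2r FPKM to Igf1r FPKM in each library (points) with mean and SD. Right, the percent of summed binding protein FPKM (log axis) made up by Igfbp3, Igfbp4, Igfbp6 and Igfbp7 in each library, BMSCs-OE-FNDC5 left of BMSCs-OE-NC. The receptor ratio is 5.56 to 6.72 in BMSCs-OE-FNDC5 and 2.77 to 2.88 in BMSCs-OE-NC, and the share of Igfbp3 is under 1% in BMSCs-OE-FNDC5 alone.

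The members that rose are shorter in the table than those that fell. Igfbp6, Igfbp7 and Igfbp4 have lengths of 1069, 1102 and 2176 bases, against 2407 bases for Igfbp3 and 4101 bases for Igf1r, and the median of the genes tested is 2262 bases. Igf2r, at 8787 bases, is the longest member. With the trend with length removed, Igfbp4 (0.75), Igfbp6 (0.31) and Igfbp7 (0.56) still rose and Igfbp3 (-1.60) and Igf1r (-0.64) still fell, but Igf2r joined those that rose (0.98). In that fit 4 of the 7 rose and 2 fell, against 40.7% and 30.8% of all genes tested. Igfbp3 was then the 1 member past both thresholds. The part of length in these results was not tested beyond this fit.

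**Figure D3:**
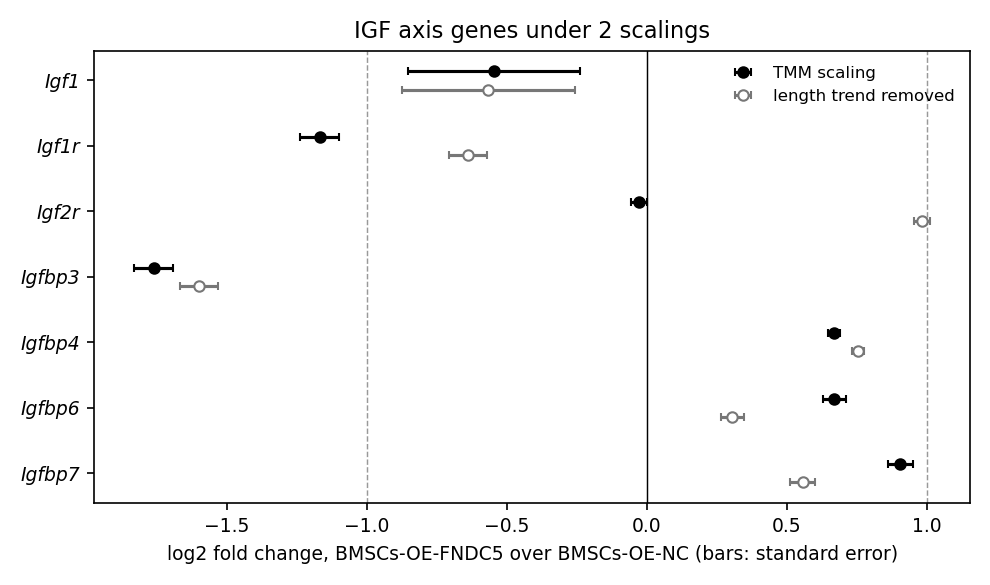
Log2 fold change (BMSCs-OE-FNDC5 relative to BMSCs-OE-NC) of the 7 tested IGF axis genes with TMM scaling (filled) and after removal of the trend of counts with gene length (open). Bars are standard errors and dashed lines mark an absolute log2 fold change of 1. Igf2r lies at -0.03 with TMM scaling and at 0.98 with the trend removed, and Igf1r at -1.17 and -0.64.

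Around the 10 genes, 108 other genes of the pathway were listed by role, of which 94 were tested, 27 rose, 53 fell and 14 did not pass, where 36.9% of all genes tested rose and 38.8% fell. Their median log2 fold change was -0.34, against -0.04 over all genes tested. Past both thresholds 5 rose (Hmga1, M6pr, Rack1, Grb14 and Eif4ebp1) and 28 fell, against 9.84% and 17.5% of all genes tested. Without BMSCs-OE-NC replicate 3 the number that rose past both was 3. With the length trend removed, 36 rose and 43 fell, against 40.7% and 30.8% of all genes tested. These shares are the background for the counts of each list below, none of which was tested as a list. Of 7 insulin system partners, Insr was the 1 tested. Ins1, Ins2, Insrr, Igfbp1 and Igfbpl1 were at 0 in every library, and Igfals, the acid-labile subunit that joins IGF and IGFBP3 in serum, had at most 2 counts. Genes outside the rule for named genes are named below where a count was 5 or fewer, after their values had been seen. They are also named where a called direction turned round with the length trend removed.

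Of the proteases that cut binding proteins and the inhibitors of those proteases, 11 were tested, of which 4 rose and 7 fell. Stc1, a stanniocalcin that inhibits pappalysins, fell to 351 ± 3.66 CPM in BMSCs-OE-FNDC5, against 1128 ± 6.93 CPM in BMSCs-OE-NC (SD, n = 3 each; log2 fold change -1.68). Mmp14 (a membrane metalloproteinase, -1.39), Plat (tissue plasminogen activator, -1.62) and Adam9 (a membrane disintegrin protease, -1.56) also fell. Htra1, a secreted serine protease, rose to 1542 ± 2.27 CPM in BMSCs-OE-FNDC5, against 1001 ± 10.4 CPM in BMSCs-OE-NC (SD, n = 3 each; log2 fold change 0.62). Ctsd (the lysosomal protease cathepsin D, 0.26), Plau (urokinase, 0.94) and Stc2 (the other stanniocalcin, 0.27) rose as well. With the length trend removed Stc2 did not pass (0.10, adjusted p = 0.161 from edgeR), and 4 rose and 5 fell. Mmp2, which fell with TMM scaling (-0.12), was among those that rose in that fit (0.23). Pappa2, a pappalysin, was at 0 in every library, Adam28 had at most 1 count, and Pappa was not analysed here. The list thus moved in both directions, its members past both thresholds all downward.

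Of 8 tested genes that share the IGF binding protein domain, 2 rose and 5 fell. Crim1, a membrane protein with this domain, fell to 19.9 ± 0.979 CPM in BMSCs-OE-FNDC5, against 73.9 ± 3.40 CPM in BMSCs-OE-NC (SD, n = 3 each; log2 fold change -1.89). The matricellular genes Ccn1 (-0.49), Ccn2 (-0.34), Ccn4 (-2.32) and Ccn5 (-0.58) fell, and Ccn3 did not pass (-0.21, adjusted p = 0.249 from edgeR). Esm1 (the proteoglycan endocan, 0.83) and Kazald1 (1.00) rose. With the length trend removed Crim1 (-1.37) and Ccn2 (-0.09, adjusted p = 0.0089 from edgeR) fell by less. Ccn1 (-0.48), Ccn4 (-2.35) and Ccn5 (-0.65) fell much as before, and Esm1 (0.91) and Kazald1 (0.85) still rose.

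Of 7 tested genes that process ligands or tag lysosomal enzymes for IGF2R, 3 rose and 2 fell. Furin, a proprotein convertase, rose to 929 ± 3.74 CPM in BMSCs-OE-FNDC5, against 710.2 ± 9.80 CPM in BMSCs-OE-NC (SD, n = 3 each; log2 fold change 0.39). Nagpa, which uncovers the mannose 6-phosphate tag, rose (0.33). M6pr, the smaller mannose 6-phosphate receptor, had 91, 40 and 39 counts in BMSCs-OE-FNDC5, against 32, 43 and 36 counts in BMSCs-OE-NC. BMSCs-OE-FNDC5 library 1 stood apart, and the raw counts of the others overlapped. Scaled, M6pr was at 6.02, 2.73 and 2.58 CPM in BMSCs-OE-FNDC5, against 1.57, 2.14 and 1.82 CPM in BMSCs-OE-NC. The groups did not overlap on this scale. M6pr rose with TMM scaling (1.03, adjusted p = 0.014 from edgeR) but did not pass with the length trend removed (0.65, adjusted p = 0.094 from edgeR). Without BMSCs-OE-FNDC5 replicate 1, 2 genes of this list rose, and likewise without BMSCs-OE-NC replicate 1. Gnptab, a subunit of the enzyme that begins the tag, fell (-0.97), as did the convertase Pcsk5 (-1.32). Both fell by less with the length trend removed (Gnptab -0.33, Pcsk5 -0.63). Pcsk7 (0.07) and Gnptg (0.06) did not pass, but with the length trend removed Pcsk7 rose (0.50) and Gnptg fell (-0.25). With library size as the only scaling none of the 7 rose and 4 fell.

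Among RNA-binding proteins and regulators of IGF genes, 1 of 8 tested rose and 5 fell. Hmga1, a chromatin protein, rose to 1493 ± 8.18 CPM in BMSCs-OE-FNDC5, against 509 ± 10.6 CPM in BMSCs-OE-NC (SD, n = 3 each; log2 fold change 1.55). Sp1, the GC box factor this study follows, fell to 10.9 ± 0.997 CPM in BMSCs-OE-FNDC5, against 30.3 ± 1.29 CPM in BMSCs-OE-NC (SD, n = 3 each; log2 fold change -1.48). Sp1 fell by less with the length trend removed and was then not past both thresholds (-0.53, adjusted p = 0.00026 from edgeR). Ctcf, the insulator protein of the Igf2 locus, fell (-1.22), as did Plag1, an activator of Igf2 (-2.60), Wt1 (-0.44) and Igf2bp2, which binds Igf2 mRNA (-0.39). Igf2bp1 (-0.19) and Hmga2 (-0.08) did not pass. With the length trend removed Igf2bp2 (0.05, adjusted p = 0.550 from edgeR) and Wt1 (-0.21, adjusted p = 0.132 from edgeR) did not pass, and Hmga2 fell (-0.56, adjusted p = 0.012 from edgeR), so that 4 of the 8 fell.

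Of 14 tested adaptors and phosphatases of the receptor, 4 rose and 8 fell, but 8 rose and 4 fell with the length trend removed, so that the balance of this list turned round with that choice. Rack1, a scaffold that binds IGF1R, rose to 4861 ± 48.7 CPM in BMSCs-OE-FNDC5, against 1967 ± 54.3 CPM in BMSCs-OE-NC (SD, n = 3 each; log2 fold change 1.31). Grb14 (1.02), Grb2 (0.24) and the tyrosine phosphatase gene Ptpn1 (0.17) also rose. Nedd4, a ubiquitin ligase, fell to 244 ± 3.22 CPM in BMSCs-OE-FNDC5, against 633 ± 8.32 CPM in BMSCs-OE-NC (SD, n = 3 each; log2 fold change -1.38). Irs2 (an insulin receptor substrate, -0.95), Socs3 (-0.61) and Grb10 (-0.56) fell. Sh2b2 (0.24) and Sh2b1 (0.06) did not pass. With the length trend removed Grb10 (0.13), Sh2b2 (0.52) and Sh2b1 (0.41) rose, Irs2 (-0.11) and Ptpn1 (0.06) did not pass, and Nedd4 fell by less (-0.67). Shc1 (-0.21) and Ptpn11 (-0.33) fell with TMM scaling and rose in that fit (Shc1 0.24, Ptpn11 0.40).

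In the PI3K and AKT branch, 8 of 27 tested genes rose and 14 fell, but with the length trend removed 11 rose and 11 fell. The kinases Akt1 (0.47), Akt2 (0.42) and Gsk3a (0.47) and the translation repressor Eif4ebp1 (1.00) rose. Akt1 was at 700.4 ± 8.61 CPM in BMSCs-OE-FNDC5, against 506 ± 9.86 CPM in BMSCs-OE-NC (SD, n = 3 each). The PI3K subunits Pik3r1 (-1.89) and Pik3ca (-1.42) and the transcription factor Foxo3 (-1.35) fell. Phlpp1 (-0.22), Pik3cd (-0.24), Pik3r3 (-0.30) and Rptor (0.04) were among those that did not pass. After removal of the length trend Phlpp1 (0.57) and Rptor (0.90) rose, and Pik3ca fell by less (-0.60). Mtor turned from a fall with TMM scaling (-0.61) to a rise in that fit (0.39).

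In the RAS and ERK branch, 5 of 18 tested genes rose and 11 fell. The kinases Mapk3 (0.88), Map2k2 (0.79) and Araf (0.32), the GTPase Hras (0.83) and the transcription factor Elk1 (0.28) rose. Mapk3 was at 772 ± 12.5 CPM in BMSCs-OE-FNDC5, against 419 ± 12.1 CPM in BMSCs-OE-NC (SD, n = 3 each). The kinase Rps6ka3 (-1.98), the exchange factor Sos1 (-1.35) and the feedback inhibitors Dusp6 (-0.88) and Spry2 (-0.65) fell. Rps6ka1 (1.25, adjusted p = 0.057 from edgeR) and Sos2 (-0.18) did not pass. After removal of the length trend both rose (Rps6ka1 1.69, Sos2 0.56), Rps6ka3 (-1.13) and Sos1 (-0.50) fell by less, and 7 genes of this list rose and 10 fell.

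**Figure D4:**
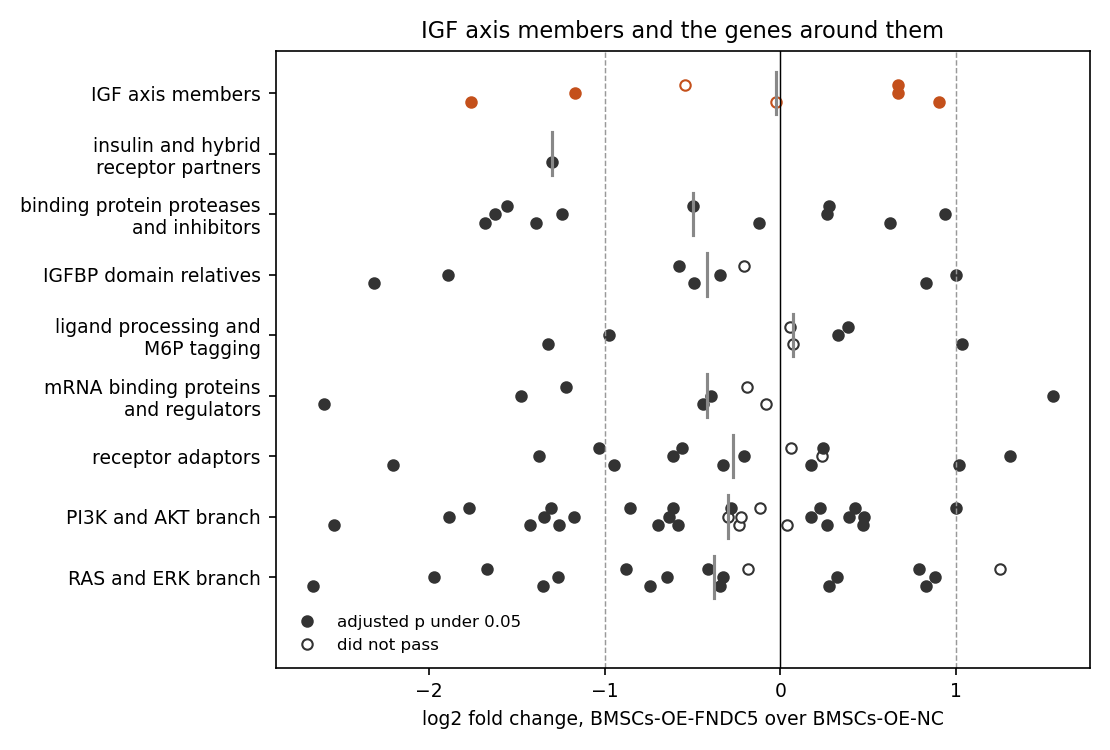
Log2 fold change (BMSCs-OE-FNDC5 relative to BMSCs-OE-NC) of each tested gene by role with TMM scaling. Filled points passed an adjusted p under 0.05, short vertical lines are the median of a list and dashed lines mark an absolute log2 fold change of 1. Most lists hold genes on both sides of 0, with 27 of the 94 genes around the IGF axis higher and 53 lower, and 36 higher and 43 lower with the length trend removed.

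The labelled cell type was checked with marker genes. Of 16 marrow stromal and mesenchymal markers, 15 were tested, and their summed level was 14745 to 15220 CPM in BMSCs-OE-FNDC5 and 12912 to 13348 CPM in BMSCs-OE-NC. Vim was the largest part of this sum, at 6321 CPM in BMSCs-OE-FNDC5 against 3302 CPM in BMSCs-OE-NC. Of these 15, 6 rose and 8 fell, against 36.9% and 38.8% of all genes tested. Past both thresholds 1 rose, Thy1 (1.29), and 6 fell, against 9.84% and 17.5%. Those 6 included Pdgfra (-1.86), Cxcl12 (-1.72), Pdgfrb (-1.62) and Itgb1 (-1.02), and each of the 6 fell by less with the length trend removed. Col1a1 turned from a fall (-0.34) to a rise (0.42) in that fit. Lepr, a receptor that marks stroma in marrow, was not tested with at most 5 counts in a library. Of 13 blood cell markers, 7 were at 0, among them Ptprc, which marks all leukocytes, and 2 were tested, Cd14 (1.00) and Cd68 (0.75). Both rose, and the list's summed level was 198 to 206 CPM in BMSCs-OE-FNDC5 and 98.1 to 104 CPM in BMSCs-OE-NC. Of 5 endothelial markers 3 were at 0, and they summed to at most 0.546 CPM in BMSCs-OE-FNDC5 and 0.399 CPM in BMSCs-OE-NC. Liver markers, from the main organ of IGF-I synthesis, summed to at most 0.205 CPM in BMSCs-OE-FNDC5 and 0.349 CPM in BMSCs-OE-NC. Of 12 osteoblast and adipocyte markers, only Cebpa (0.89) and Runx2 (-1.38) were tested. Runx2 fell and Cebpa rose, and the list summed to 53.3 to 61.6 CPM in BMSCs-OE-FNDC5 and 34.3 to 36.4 CPM in BMSCs-OE-NC. The part of these markers in the IGF axis results was not tested.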

How the data were processed

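RNA-seq was analysed in 6 libraries. The authors deposited whole-number gene counts and FPKM values, and all value columns were used. Each deposited FPKM value is its count per kilobase of the listed gene length, over 1 constant per library. Tools in the submitters' processing notes are HISAT2 2.1.0, TopHat2, Bowtie2 2.2.3, HTSeq 0.6.0, CASAVA and DESeq2. Their roles and order are not given in the sources used here, and neither is a strand setting, so reads of a gene and an overlapping antisense gene cannot be told apart. The notes also give mm10, a mouse build, and the extraction text speaks of retinas. The gene identifiers are those of rat, and of 9 retina markers 5 were at 0, the list summing to at most 0.331 CPM in BMSCs-OE-FNDC5 and 0.808 CPM in BMSCs-OE-NC. The tables name no build, and positions are their own.

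Counts were compared between groups with edgeR 4.0.16 in R 4.3.3 (filterByExpr with minimum count 10 and minimum total 15, TMM, glmQLFit and glmQLFTest, group as the only term), with Benjamini-Hochberg adjustment over 12104 genes. TMM factors were 0.877 to 0.882 in BMSCs-OE-FNDC5 and 1.13 to 1.14 in BMSCs-OE-NC. Ratios were log2 of counts with 0.5 added. Libraries correlated at 0.990 to 0.992 within groups and at 0.937 to 0.939 between groups, and libraries of a group differed by more than sampling noise (chi-square per degree of freedom 3.85 to 7.95). Promoter windows came from RefSeq (GRCr8). The members, lists and settings were chosen with earlier results of these data known. All 10 members were named. Of each other list, up to 4 genes per direction with the smallest p were named, with Insr and Fndc5 always. Some genes of these lists are not reported here by name. Alternatives were DESeq2 1.42.0, RLE, upper-quartile or library-size scaling, no filter or a minimum of 10 counts in all libraries, limma-voom (limma 3.58.1), limma-trend on log2(FPKM + 1) and log2(FPKM + 0.1), a replicate block, each library left out in turn, and an offset for each library's trend with gene length (lowess, span 0.3). The edgeR procedure was tested on simulated data with 200 genes changed, in both directions, and the length offset on a simulated trend with length. With so few genes changed, the simulation cannot show which scaling between groups suits these data. Figures were drawn with matplotlib 3.10.9.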

Additional observations from a re-analysis of the deposited data

How the results depend on the processing

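Over 17 other settings, Igf1r (log2 fold change -1.54 to -0.64), Igfbp3 (-2.13 to -1.60), Igfbp4 (0.30 to 0.75), Igfbp6 (0.30 to 0.71) and Igfbp7 (0.53 to 0.93) kept their direction and their call. Igf1 ranged from -0.91 to -0.21 and passed the test with library size as the only scaling. Igf2r changed sign with DESeq2 (0.0028, adjusted p = 0.942), with RLE scaling (0.0028, adjusted p = 0.931 from edgeR) and with the length trend removed (0.98), and passed the test as lower with upper-quartile scaling (-0.13) and library size only (-0.40). The median of all genes moved by -0.10 with upper-quartile scaling, by -0.37 with library size only and by 0.13 with the length trend removed. Members' changes depend on the scaling, and whether the median gene itself changed was not tested. With library size only, 4 members fell in place of 2, and 13 of the other pathway genes rose in place of 27. With the length trend removed, 1 member in place of 2 fell past both thresholds. The number of other pathway genes that rose past both thresholds, 5, was 2 with upper-quartile scaling, 1 with library size only and 3 under each of a minimum of 10 counts in all libraries, log2(FPKM + 1) and the length trend removed, and it ranged from 3 to 6 when each library was left out. The number that fell past both, 28, was 14 with log2(FPKM + 1) and 18 with the length trend removed. The Igfbp4 share difference of 2.00 points was 3.35 on CPM and 3.13 without Igfbp7, and the Igfbp3 share difference of -3.58 points was -4.38 on CPM. For these the cause was not tested. Replicate numbers did not pair the libraries (correlations of deviations 0.021, -0.025 and -0.0047), and with the replicate block 4399 genes rose and 4628 fell, with no change in any member's call (Igf1r -1.17, Igfbp3 -1.76). Depth limits Igf1, Igf2 and Igfbp5, which had at most 41, 9 and 8 counts in a library.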
